A study of Rattus norvegicus with 10 samples.

Results

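The transcripts described here are the 6 complex I genes that rat mitochondrial DNA carries on the plus strand of the listed chromosome, mt-nd1, mt-nd2, mt-nd3, mt-nd4l, mt-nd4 and mt-nd5. They were taken from the 37 features listed on the mitochondrial chromosome (MT) by keeping the 15 longer than 190 bases, sorting them by start and reading off their names in the fixed gene order of mammalian mitochondrial DNA. The members are therefore 6 of the 26404 features in each file. The rule itself uses position and length only, but it was set with earlier results of these data known. Their transcripts were counted by RNA-seq in right-hemisphere cerebral cortex from 10 fetal rats (Sprague Dawley, embryonic day 21), each from a different dam. In the oxytocin group, 5 dams had received oxytocin intravenously at 100 mcg per kg, and in the saline group 5 dams had received the same volume of saline. Tissue was taken 24 h later. RNA with an integrity number above 9.5 was selected with oligo-dT, a primer that binds poly(A) tails. The comparison asked which transcripts differed in the fetal cortex after the dam had been given oxytocin, a peptide hormone that drives contraction of the uterus.

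Complex I is the enzyme of the inner mitochondrial membrane that takes electrons from NADH, passes them to ubiquinone and pumps protons. Most of its subunits are encoded in the nucleus, but the hydrophobic core of its membrane arm is encoded in mitochondrial DNA. The heavy-strand genes are transcribed together as a long precursor, which is cut mainly at the tRNAs that lie between the genes, and the pieces are polyadenylated. The reading frames of nd4l and nd4 stay together on a single mRNA. In neurons, complex I is a main entry point of electrons into oxidative phosphorylation, on which synaptic and ionic work depends.

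In coordinates of the build Rnor_5.0, which the submitters' processing notes name, the members were each listed as a single interval without introns. The gene mt-nd1 (ENSRNOG00000030644) spans MT bases 2740 to 3694. It is followed by mt-nd2 (ENSRNOG00000031033) at 3904 to 4942. The remaining members lie beyond the complex IV and V genes. They are mt-nd3 (ENSRNOG00000033615) at 9451 to 9798, mt-nd4l (ENSRNOG00000031053) at 9870 to 10166, mt-nd4 (ENSRNOG00000029707) at 10160 to 11537 and mt-nd5 (ENSRNOG00000029971) at 11736 to 13565. The listed intervals of mt-nd4l and mt-nd4 share 7 bases, and the end of mt-nd5 shares 23 bases with mt-nd6 on the opposite strand. How the counting treated strand, and reads that also match copies of mitochondrial DNA in the nuclear genome, is not given in the sources used here, so counts at these overlaps are uncertain.

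Assigned counts per library ranged from 18723390 to 30404127 in the oxytocin group (median 22212119) and from 18555172 to 20776414 in the saline group (median 19689446). The 6 genes together held 1.74% to 1.84% of all assigned counts in the oxytocin libraries and 1.454% to 1.62% in the saline libraries, so the groups did not overlap. Depth differed between the groups as well. Oxytocin replicates 4 and 5, with 19651678 and 18723390 counts, lay within the saline range of depth, and the 6 genes summed to 17431 and 18184 CPM (counts scaled to a common library total) in them, compared with 16186 CPM in the highest saline library. The part of depth in the difference was not tested. Summed in the same way, the 6 other heavy-strand protein genes did not overlap between the groups either. They stood at 39198 to 42060 CPM in the oxytocin libraries and at 32109 to 38255 CPM in the saline libraries. Every member had at least 9887 counts in every library. Counting error was therefore at most 1.01% of a value, while the coefficient of variation between fetuses of a group was 2.79% to 9.12%. In bulk tissue, a change in the number of cells rich in mitochondrial RNA and a change in the RNA per cell cannot be told apart. The files pair identifiers with no gene names, so the labelled tissue was not checked against marker genes, and the nuclear-encoded subunits and assembly factors of complex I were not analysed here.

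Per length, the 6 transcripts differed from one another and lay below the other heavy-strand protein genes. In RPKM (CPM per kilobase of listed length), every member was below mt-co1, mt-co2, mt-co3, mt-atp8, mt-atp6 and mt-cyb in 10 of 10 libraries. The narrowest of these gaps was 1.02-fold and the widest 1.37-fold, between the highest member and the lowest of the other genes in a library. Over the 10 libraries mt-nd1 had the highest level of the 6, at 4034 ± 400 RPKM (SD). It was followed by mt-nd2 at 3251 ± 442, mt-nd4 at 3078 ± 291, mt-nd4l at 2275 ± 217, mt-nd5 at 2075 ± 146 and mt-nd3 at 1790 ± 184 RPKM (SD, n = 10 each). These are levels in both groups together, as a description of the order.

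Most neighbours in that order kept their places in every fetus. Within a library, mt-nd1 exceeded mt-nd2 in 10 of 10 libraries, mt-nd4 exceeded mt-nd4l in 10 of 10, and mt-nd5 exceeded mt-nd3 in 10 of 10. The order of mt-nd2 and mt-nd4 was not fixed, since mt-nd2 was the higher in 8 of 10 libraries and mt-nd4 in saline replicates 2 and 3. Nor was that of mt-nd4l and mt-nd5, where mt-nd4l was the higher in 9 of 10. Within single libraries the highest and lowest members differed by 1.95-fold to 2.67-fold. The RPKM of mt-nd4 was 1.35 ± 0.044 times that of mt-nd4l (SD, n = 10), although these genes share an mRNA. The cause of this gap was not tested. A difference in RPKM between genes is thus not read here as a difference in the number of transcripts.

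**Figure D1:**
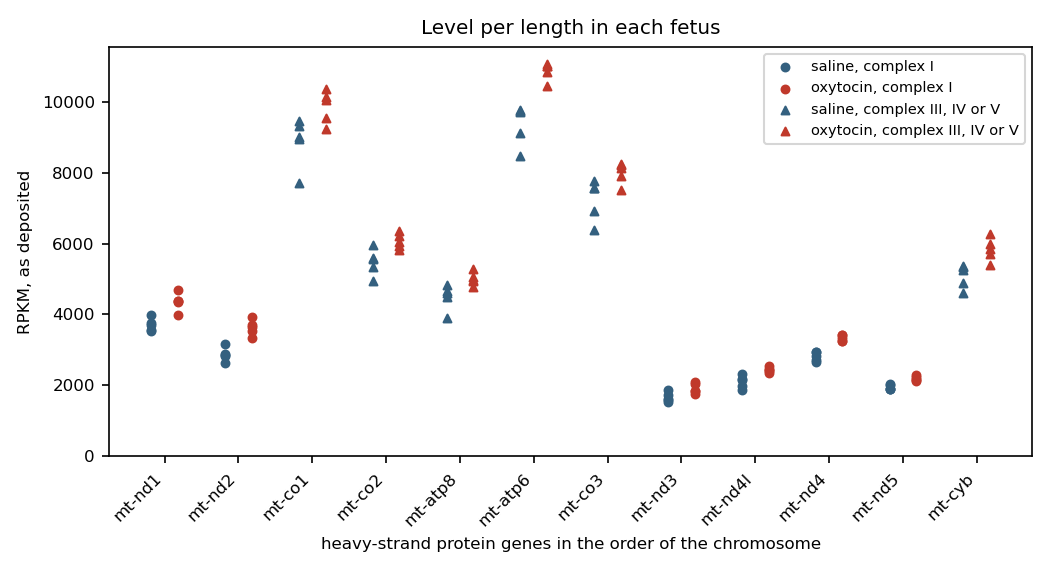
Deposited RPKM on the vertical axis for the 12 heavy-strand protein genes in chromosome order, with a point for each of the 5 saline (blue) and 5 oxytocin (red) fetuses per gene. Circles are the complex I genes, which lie below the triangles of the complex III, IV and V genes in each library, with mt-nd1 highest among them and mt-nd3 lowest.

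Between the groups, all 6 transcripts had a higher mean level after oxytocin, by 1.15-fold to 1.28-fold. The log2 fold change was above 0 for 6 of 6, compared with 48.2% of the 14400 features tested. In edgeR's quasi-likelihood test with adjustment over all of these features, 0 of 6 were past 0.05, as were 0% of all features. At an unadjusted p under 0.05 and higher after oxytocin, the same test counted 6 of 6 members and 1.93% of all features (3.57% in either direction). With counts scaled by library size alone, 25.3% of the features at that unadjusted p were higher after oxytocin, compared with 54.1% under the TMM scaling used here (library factors that edgeR derives from the bulk of the features). DESeq2 called 5 of 6 members at an adjusted p of 0.05, all but mt-nd3. It adjusted over only the 2193 features that its independent filtering left, and called 0.502% of them. It also called mt-atp6 and mt-cyb among the 6 other heavy-strand protein genes (adjusted p of 0.000681 and 0.0428), and the light-strand gene mt-nd6 (adjusted p of 0.00357). In alternatives chosen after seeing the data, DESeq2 without independent filtering called 4 of 6 (0.0296% of features) together with mt-atp6 and mt-nd6, and edgeR with a surrogate variable estimated from log2 CPM called 1 of 6, mt-nd2 (0.00694% of features). The median log2 fold change was 0.25 over the 6 members, 0.18 over the 6 other heavy-strand protein genes and -0.0031 over all features tested. The submitters report mt-nd2 from these same samples as past their own threshold, so its place here is not independent evidence.

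The members at the quinone end of the membrane arm are mt-nd1 and mt-nd3. The ND1 protein lies where the membrane arm meets the arm that carries electrons and forms part of the ubiquinone channel. Its transcript stood at 4195, 4208, 4507, 3838 and 4268 CPM in oxytocin replicates 1 to 5 and at 3583, 3451, 3352, 3811 and 3368 CPM in saline replicates 1 to 5, after TMM scaling. The oxytocin fetuses were the higher, but the lowest of them, replicate 4, was only just above the highest saline fetus. In deposited CPM, without TMM scaling, these libraries changed order and the groups overlapped. In edgeR's test the log2 difference was 0.26 ± 0.049 (SE), with an adjusted p of 0.561 (0.000148 unadjusted).

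The ND3 protein is a small subunit whose loop lies beside the quinone site and moves between the active and resting forms of the enzyme. Its transcript stood at 729, 653, 614, 716 and 648 CPM in the oxytocin replicates and at 650.0, 546, 552, 603 and 526 CPM in the saline replicates, in the same order. Here the groups overlapped, because saline replicate 1 lay above the lowest oxytocin fetuses. This gave 0.22 ± 0.065 (SE) on the log2 scale in edgeR's test, where the adjusted p was 0.9997 (0.0042 unadjusted). Its standard error was the largest of the 6.

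ND2, ND4 and ND5 are the antiporter-like subunits, which are related to sodium-proton antiporters and line up along the membrane arm as proton-pumping units. In the oxytocin replicates mt-nd2 stood at 4099, 3497, 3687, 3897 and 3847 CPM, and in the saline replicates at 2925, 2679, 2948, 3294 and 2965 CPM. All oxytocin fetuses lay above all saline fetuses, although the gap between the nearest of them was smaller than the SD within either group. On the log2 scale edgeR estimated a difference of 0.36 ± 0.056 (SE), or 1.28-fold, with 0.162 as the adjusted p (2.12e-05 unadjusted). In this test it was the feature with the smallest p of all those tested. In some alternative fits, that of DESeq2 among them, mt-nd4 had a smaller p than mt-nd2. DESeq2 gave mt-nd2 an adjusted p of 1.83e-06.

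For mt-nd4 the levels were 4732, 4526, 4638, 4506 and 4807 CPM in the oxytocin replicates and 3877, 3590.3, 4044, 4053 and 3707 CPM in the saline replicates. The groups were well apart, and the oxytocin fetuses lay close together, with a coefficient of variation of 2.79%. The edgeR estimate was 0.27 ± 0.042 (SE) on the log2 scale, or 1.20-fold, with an adjusted p of 0.162 (2.25e-05 unadjusted), next in order of p after mt-nd2. DESeq2 gave 1.83e-06 here too.

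The third antiporter-like gene, mt-nd5, codes for the subunit at the far end of the membrane arm and has the longest listed interval of the 6, at 1830 bases. It stood at 3960.4, 4237, 4019, 3906 and 4194 CPM in the oxytocin replicates and at 3492, 3399, 3649.9, 3731 and 3431 CPM in the saline replicates. The groups did not overlap, although the difference was the smallest of the 6. By edgeR it was 0.20 ± 0.040 (SE) on the log2 scale, and the adjusted p was 0.561 (0.000234 unadjusted).

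ND4L is a small subunit packed between the larger ones in the membrane arm, and its listed interval of 297 bases is the shortest of the 6. Its transcript stood at 762, 706, 725, 720.2 and 748 CPM in the oxytocin replicates and at 641, 546, 642, 692 and 586 CPM in the saline replicates. The groups did not overlap, but the lowest oxytocin fetus (706) was little above the highest saline fetus (692), and the spread was wider among saline fetuses, with a coefficient of variation of 9.12% against 3.08% among oxytocin fetuses. The log2 estimate from edgeR was 0.24 ± 0.058 (SE), and its adjusted p was 0.9997 (0.00123 unadjusted).

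Counted together, 5 of the 6 members had groups without overlap after TMM scaling, with oxytocin the higher. Among all features tested, 0.375% did so in that direction and 0.701% in either. In deposited CPM this held for 4 of the 6, all but mt-nd1 and mt-nd3, compared with 0.181% of all features. The 6 transcripts are cut from a shared precursor and were counted in the same libraries, so they are not independent measurements of the treatment. Among the other heavy-strand protein genes, 6 of 6 were also higher after oxytocin, from 0.17 (mt-co3) to 0.24 (mt-atp6) on the log2 scale, 6 of 6 had an unadjusted p under 0.05 in edgeR's test, and 2 of 6 had groups that did not overlap. The higher level was therefore not particular to the complex I genes.

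**Figure D2:**
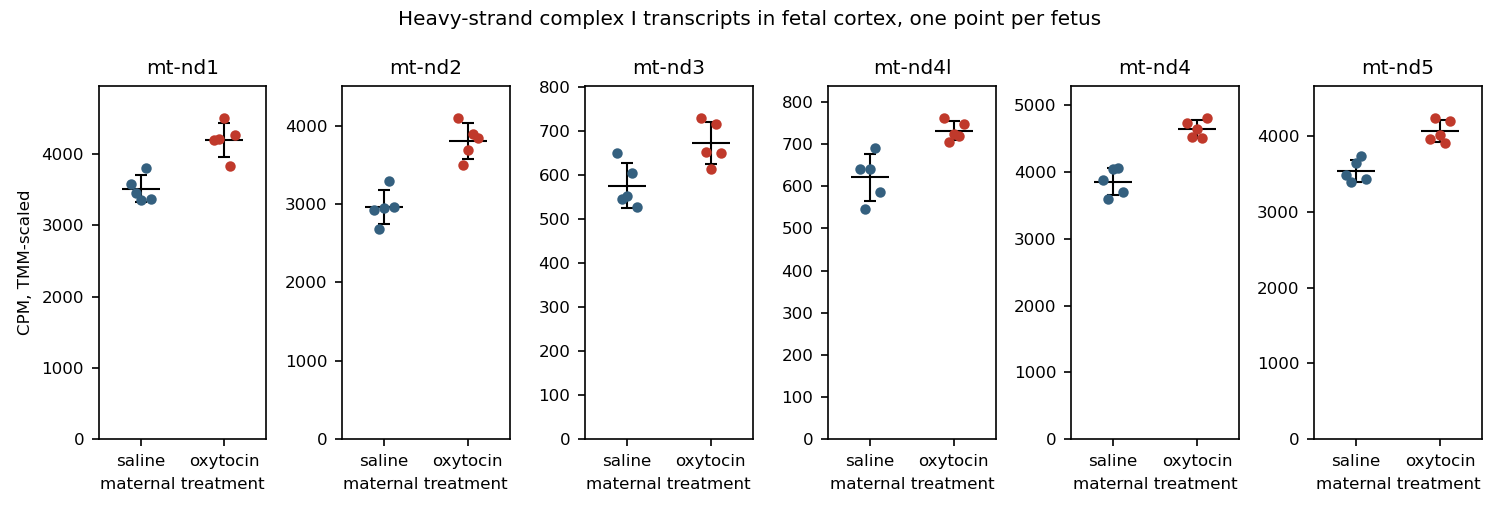
TMM-scaled CPM on the vertical axes, from 0, with a point per fetus for the 5 saline (blue) and 5 oxytocin (red) fetuses, and mean and SD in black. The groups are apart in each panel except that of mt-nd3, and the gap is narrow for mt-nd1 and mt-nd4l.

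**Figure D3:**
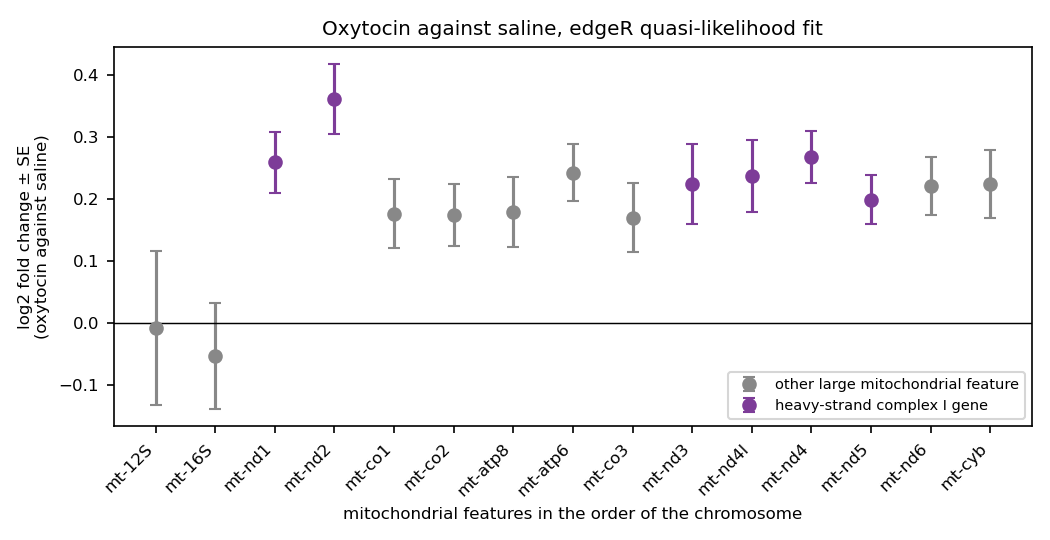
Log2 fold change of oxytocin against saline with its SE from edgeR's quasi-likelihood fit, for the 15 large mitochondrial features in chromosome order. The 6 heavy-strand complex I genes (purple) run from 0.20 for mt-nd5 to 0.36 for mt-nd2. The other protein genes (grey), among them the light-strand complex I gene mt-nd6 at 0.22, run from 0.17 to 0.24. The bars of both rRNA genes cross 0, with -0.008 ± 0.124 for mt-12S and -0.054 ± 0.086 for mt-16S. For mt-12S the sign changed with single libraries left out (0.078 without saline replicate 1).

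Whether some of the 6 transcripts differed more than others was asked with ratios of counts within each fetus, which do not depend on how libraries are scaled against one another. There are 15 ratios between pairs of members and 6 ratios of a member to the sum of the other heavy-strand protein genes. All 21 went through exact permutation tests, two-sided, of the mean log2 ratio, with Benjamini-Hochberg adjustment over the 21. With 5 fetuses against 5 the smallest p such a test can give is 0.0079, so none of the 21 can pass 0.05 after adjustment unless at least 4 do so together. After adjustment 0 of 21 passed 0.05, and the lowest adjusted p was 0.333. At an unadjusted p under 0.05 there were 3 of 15 pair ratios and 0 of 6 ratios to the other genes. The groups overlapped for all 21.

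With all libraries, the ratios with the larger differences were those of mt-nd2. In all 5 pairs its mean ratio to the partner was higher after oxytocin, by 0.09 to 0.16 on the log2 scale. These pairs share mt-nd2 and so are not independent of one another. Without oxytocin replicate 4, mt-nd1 against mt-nd2 differed by -0.06 in place of -0.10. Without saline replicate 1, mt-nd2 against mt-nd3 differed by 0.09 in place of 0.14, and with group medians in place of means by 0.07. The ratio of mt-nd2 to mt-nd4l counts was 5.38, 4.95, 5.08, 5.41 and 5.14 in the oxytocin replicates and 4.56, 4.91, 4.59, 4.76 and 5.06 in the saline replicates. Only oxytocin replicate 2 lay within the range of the saline fetuses. The difference was 0.12 on the log2 scale, with SDs of 0.054 and 0.064 within the groups (exact permutation test, p = 0.0159, adjusted p = 0.333).

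Against mt-nd5, mt-nd2 stood at a ratio of 1.03, 0.825, 0.917, 0.998 and 0.917 in the oxytocin replicates and of 0.838, 0.788, 0.808, 0.883 and 0.864 in the saline replicates. Again oxytocin replicate 2 was the fetus inside the saline range. The difference was 0.16 on the log2 scale (exact permutation test, p = 0.0476, adjusted p = 0.333). The ratio of mt-nd4 to mt-nd5 differed by 0.07, from 1.14 after oxytocin to 1.09 after saline as geometric means (exact permutation test, p = 0.0476, adjusted p = 0.333). Without oxytocin replicate 2 the groups no longer overlapped for these 3 ratios, and the adjusted p was 0.111 for mt-nd2 to mt-nd4l and 0.0833 for each of the other pairs (exact permutation tests). That fetus was the one inside the saline range in all 3, so leaving it out removed the overlap by construction. With any other library left out, the lowest adjusted p of a pair ratio was between 0.25 and 0.6 (exact permutation tests).

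With all libraries, pairs that leave out mt-nd2 differed less between the groups. Over these 10 pairs the size of the difference was 0.01 to 0.07 on the log2 scale. This order did not hold for every pair without some libraries. Without oxytocin replicate 4, mt-nd1 against mt-nd3 differed by 0.09 in place of 0.03, more than mt-nd2 against mt-nd1. Without saline replicate 3, mt-nd4 against mt-nd5 differed by 0.08, slightly more than mt-nd2 against mt-nd4 at 0.07. With group medians in place of means, mt-nd4 against mt-nd5 differed by 0.09. This was more than mt-nd2 against mt-nd1 or mt-nd3, and slightly more than mt-nd2 against mt-nd4. The pair mt-nd1 and mt-nd4 stood at a ratio of 0.905 after oxytocin and 0.911 after saline (geometric means), a difference of -0.01 (exact permutation test, p = 0.817, adjusted p = 0.903). This difference changed sign without oxytocin replicate 4 and was larger in size without saline replicate 3. For mt-nd4l and mt-nd4, the genes on a shared mRNA, the ratio was 0.161, 0.156, 0.156, 0.160 and 0.156 in the oxytocin replicates and 0.165, 0.152, 0.159, 0.171 and 0.158 in the saline replicates. The oxytocin values fell inside the saline range, and the difference was -0.03 on the log2 scale (exact permutation test, p = 0.397, adjusted p = 0.75). Its size was smaller without saline replicate 4 and larger without saline replicate 2.

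Against the 6 other heavy-strand protein genes, mt-nd2 again had the largest difference, 0.16 on the log2 scale (exact permutation test, p = 0.0794, adjusted p = 0.333). With group medians in place of means it was 0.27 (exact permutation test, adjusted p = 0.5). Next came mt-nd4 with 0.07, mt-nd1 with 0.06, mt-nd4l with 0.04 and mt-nd3 with 0.03, and mt-nd5 was lowest with 0.0016 (exact permutation tests, adjusted p from 0.542 to 0.968). Below mt-nd2 this order changed with single libraries. Without oxytocin replicate 4, mt-nd1 stood at 0.10 and mt-nd4 at 0.08. Without saline replicate 3, mt-nd1 stood at 0.03, below mt-nd4l at 0.04. Without oxytocin replicate 1, mt-nd4l stood at 0.01, mt-nd3 at -0.02 and mt-nd5 at -0.0051. Over all 10 libraries left out in turn, mt-nd4 ranged from 0.05 to 0.10, mt-nd1 from 0.03 to 0.10, mt-nd4l from 0.01 to 0.07, mt-nd3 from -0.02 to 0.07 and mt-nd5 from -0.03 to 0.04. For the 6 members summed, the ratio to the other genes summed was 0.469, 0.419, 0.431, 0.425 and 0.459 in the oxytocin replicates and 0.397, 0.407, 0.402, 0.435 and 0.460 in the saline replicates. Saline replicates 1 to 3 lay below all oxytocin fetuses, but saline replicates 4 and 5 lay above several of them. A difference between complex I and the other heavy-strand transcripts was thus not detected with these tests, which does not show that they changed alike.

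**Figure D4:**
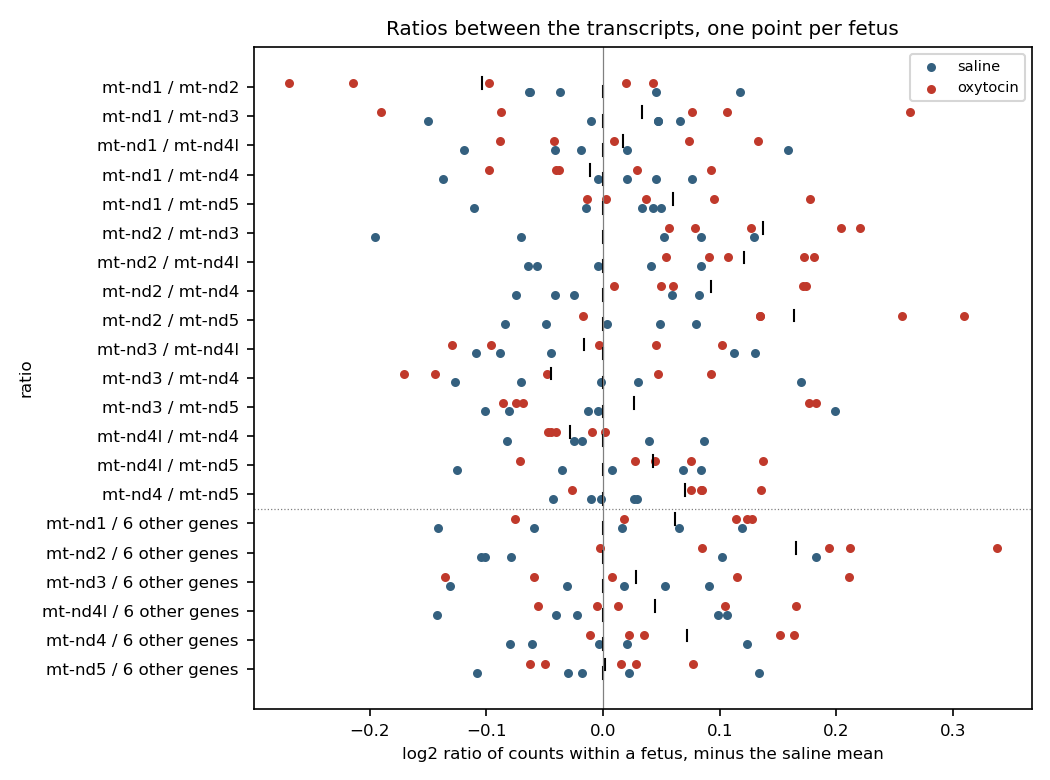
Log2 ratio of counts within each fetus, less the saline mean of that ratio, on the horizontal axis for the 15 pairs of members and, below the dotted line, the 6 ratios of a member to the other heavy-strand protein genes. Points are the 5 saline (blue) and 5 oxytocin (red) fetuses and black ticks the group means, and the group means of the oxytocin fetuses lie furthest to the right where mt-nd2 is the numerator, while single oxytocin fetuses in some other ratios, such as mt-nd1 to mt-nd3, lie further right than any in the ratios of mt-nd2 to mt-nd4l or mt-nd4.

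Fetuses of the same group also differed from one another, and the members followed each other there to very different degrees. With the group means removed from log2 CPM, the closest pair was mt-nd4l and mt-nd4, with Pearson's r of 0.92 (p = 0.000972, adjusted p = 0.0146) and Spearman's rho of 0.93 (p = 0.00278, adjusted p = 0.0417) over 10 fetuses. These are exact two-sided permutation tests over the 14400 arrangements within groups, adjusted over 15 pairs. Without the 2 fetuses farthest from the median of mt-nd4l, r was 0.87. For mt-nd2 and mt-nd4l, r was 0.82 and rho 0.66 (exact permutation tests, p = 0.00764 and 0.0525, adjusted p = 0.0573 and 0.263). Without the 2 fetuses farthest from the median of mt-nd2, r was 0.48, so that relation rests largely on them. By Pearson's r the least alike were mt-nd3 and mt-nd5, with r of -0.06 and rho of 0.08 (exact permutation tests, p = 0.871 and 0.85, adjusted p = 0.933 and 0.91). For mt-nd1 and mt-nd3, r was 0.0033 and rho 0.08 (exact permutation tests, p = 0.993 and 0.845, adjusted p = 0.993 and 0.91). By Spearman's rho the least alike were the neighbours mt-nd1 and mt-nd2, with rho of 0.03 and r of 0.20 (exact permutation tests, p = 0.95 and 0.593, adjusted p = 0.95 and 0.714).

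The spread of the ratios comes from the same counts as these correlations, so it is not separate evidence. It also depends on how much each gene varies, and its order of pairs differs in part. Within groups, the log2 ratio had its smallest SD for mt-nd4 to mt-nd5 (0.047) and mt-nd4l to mt-nd4 (0.048), and its largest for mt-nd1 to mt-nd3 (0.14) and mt-nd3 to mt-nd5 (0.13). Both pairs with the least spread are neighbours among the members, but neighbours did not in general vary together. Of the 6 pairs with the most spread, mt-nd3 was in 5, its neighbour mt-nd4l among its partners, and the remaining pair was mt-nd1 and mt-nd2 (SD 0.11), also neighbours. The points share their libraries and their depth, and these SDs are given as a description.

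**Figure D5:**
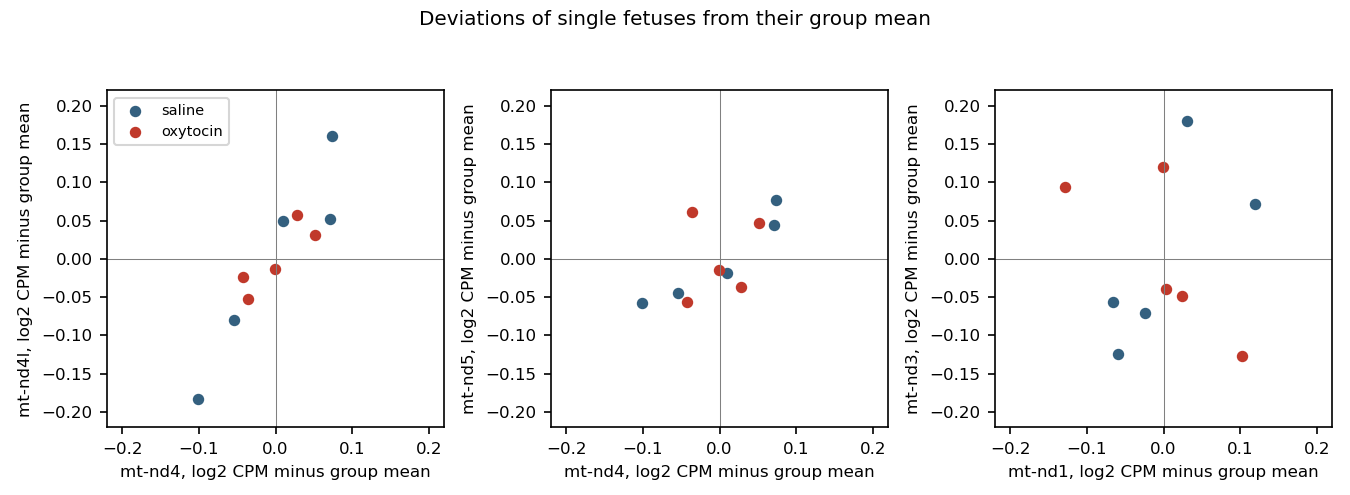
Log2 CPM of pairs of members less the group mean, with a point per fetus (saline blue, oxytocin red) and equal scales on both axes. The points lie along a line for mt-nd4 and mt-nd4l (r = 0.92), less closely for mt-nd4 and mt-nd5 (r = 0.68), and scatter for mt-nd1 and mt-nd3.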

How the data were processed

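The members and lists were chosen with earlier results of these data known. Each deposited file holds whole-number counts per gene as made by the authors, together with deposited CPM (the count as a share of the library's summed counts, scaled to 1000000) and deposited RPKM (CPM divided by the listed length in kilobases). Both definitions were checked on all 26404 features. Per the submitters' processing notes, bcl2fastq, STAR 2.0.4b, Subread featureCounts 1.45 and the build Rnor_5.0 were used, with settings not given in the sources used here. Gene tables at hand paired 0 of the identifiers with a symbol.

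Counts were filtered with filterByExpr (14400 features kept, all 6 members among them), scaled with TMM and tested with edgeR 4.0.16 (glmQLFit, glmQLFTest, R 4.3.3) over 10 libraries without covariates, with Benjamini-Hochberg adjustment over all features. The SE is the fold change divided by the root of F. Log2 CPM used a prior count of 2. Alternatives were DESeq2 1.42.0, limma 3.58.1, sva 3.50.0, other scalings, no filter (features with at least 1 count) and each library left out. Each fetus came from its own dam, and replicate numbers follow accession order, pairing nothing. All 6 members were to be named. Nuclear gene lists and cell markers were not analysed here.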

Additional observations from a re-analysis of the deposited data

How the results depend on the processing

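All 6 members were higher after oxytocin in each of 10 alternative fits with all libraries and 10 that left out a library. Features past an adjusted p of 0.05 numbered 0 in edgeR's test, 11 with DESeq2, and, in alternatives chosen after seeing the data, 6 with DESeq2 without independent filtering and 1 with a surrogate variable estimated from log2 CPM. The members among them numbered 5 (all but mt-nd3), 4 (mt-nd1, mt-nd2, mt-nd4 and mt-nd5) and 1 (mt-nd2). The other 7 alternatives called 0, with 511 to 728 features at an unadjusted p under 0.05, against 514. The cause was not tested. Leaving out each library called 0 features (420 to 841 at that unadjusted p), with log2 fold changes of 0.33 to 0.40 for mt-nd2 (adjusted p from 0.0624) and 0.19 to 0.27 for mt-nd3. No ratio passed under any alternative tried, but with so few fetuses and this many ratios adjusted together these tests say little about stability. The denominators with mt-nd6 or with only complex IV genes gave 0.16 and 0.19 for mt-nd2, and group medians in place of means gave 0.27 (exact permutation tests, adjusted p of 0.3, 0.333 and 0.5). No paired analysis was possible because the replicate numbers follow accession order and the labels pair no fetuses.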

Other observations

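Listed lengths of mt-nd1, mt-nd2 and mt-nd4 are 1 base over a whole number of codons, a form in which mammalian mitochondrial mRNAs have their stop codon completed by the poly(A) tail, while those of mt-nd3, mt-nd4l and mt-nd5 are whole. The former had log2 fold changes of 0.26, 0.36 and 0.27 and the latter of 0.22, 0.24 and 0.20. The complex IV gene mt-co3, also 1 base over, had 0.17, the lowest of the protein genes. This was noticed after the values were seen and has no test.

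With group means removed, the mean log2 CPM of the 6 members was followed most closely over the 10 fetuses by mt-nd4l itself (r = 0.98). Each member is part of that mean, so its r is in part fixed by construction. Among 14371 nuclear features, 29 had r above 0.9, the closest being ENSRNOG00000001422 on chromosome 12 (r = 0.97) and ENSRNOG00000014617 on chromosome 4 (r = 0.97), whose names the files do not give. The members mt-nd5 and mt-nd1 were less like that mean (r = 0.55 and 0.53) than many nuclear features were. With 10 fetuses and this many features compared, these values are a description.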
